A study of Mus musculus with 37 samples.

Results

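The livers of 15 male mice were compared: 9 carried the substitution Y665F in STAT5B and 6 were wild type (WT). They were chosen from the 37 livers of the series by the genotype in the sample titles and by the male label, and every one of the 15 libraries held counts of the Y-linked gene Ddx3y, from 4045 to 5998. All mice were C57BL/6 and 2 months old. Total RNA of frozen liver was depleted of ribosomal RNA and sequenced in read pairs, with 1 library per sample. Libraries of 6 WT females and 6 Y665F females of the same strain and age served as points of reference, and the Y665H libraries only helped to estimate the spread. Y665F puts phenylalanine in place of a tyrosine in the SH2 domain of STAT5B, the domain that binds phosphorylated tyrosine. The labels give the genotype of the mutant mice as STAT5B-Y665F without saying whether 1 or both alleles carry it, and they do not state litter, time of day, feeding or collection date. The labels do not say outright that each library is a separate animal. P-values measure the spread between these libraries and treat each library as independent.

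STAT5B is a transcription factor that growth hormone activates through its receptor GHR and the kinase JAK2. In the rodent liver, males receive growth hormone in pulses and females nearly without pause, and STAT5B carries this difference to large sets of sex-biased genes for cytochromes P450, sulfotransferases, urinary proteins and transporters. BCL6 and CUX2 are further transcription factors of the same system: BCL6 is known as a repressor more abundant in male liver, and CUX2 as a regulator found in female liver.

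The depth per library was 49141951 to 69038724 gene counts for WT males and 58718870 to 73937726 for Y665F males. Levels below are in CPM, gene counts scaled to a common library total, after TMM scaling, which adjusts for a shift of the bulk of genes between libraries, and they are not divided by gene length. The share of counted items in no annotated gene was 17.3% to 19.8% in WT males and 13.9% to 19.9% in Y665F males. Y665F male replicate 2 had the highest share of the 15 libraries and stood apart in its profile: its mean Spearman correlation with its own group was 0.988, against 0.993 to 0.995 for the other 8. WT male replicates 1 and 5, 2 and 4, and 3 and 6 had close values in some genes. In that order Cish was at 13.0 and 12.2, 71.3 and 67.7, and 5.11 and 6.10 CPM. Onecut1 was at 23.5 and 25.6, 152 and 154, and 29.7 and 32.1 CPM. Egfr was at 937 and 886, 724 and 733, and 1717 and 1798 CPM. Whether the libraries of such a pair are independent was not tested. The defining hepatocyte markers Alb and Hnf4a were abundant in every male library; of 8 hepatocyte markers tested, 2 were called higher and 4 lower in Y665F males, Apoa1 (log2 fold change -0.52) and Cps1 (-0.36) among the latter. In whole liver, fewer cells of a type and less RNA per cell cannot be told apart. Protocols name kits of different makers without tying them to libraries, so a kit that follows a group cannot be told apart from that group.

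Of 24421 genes in the files, 15152 passed the filter on low counts and were tested with edgeR. The Y665F males differed from the WT males in 7955 genes at an adjusted p below 0.05, which is 52.5% of those tested. The 4118 genes called higher made up 27.2% and the 3837 called lower made up 25.3%. The median log2 fold change over all genes tested was -0.0076. An absolute log2 fold change of at least 1 was reached by 1550 called genes, or 10.2%. In 2149 genes (14.2%) all 9 Y665F libraries lay above every WT library, and in 1850 (12.2%) all 9 lay below. With so many genes called, the counts of each gene list below are to be read against these shares.

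Of the 31 growth hormone and STAT5 signalling genes tested, 18 rose and 6 fell, with a median log2 fold change of 0.38. Prlr, the prolactin receptor, spanned 86.4, 101 and 108 CPM (lowest, median, highest) in WT males and 646, 1356 and 1863 CPM in Y665F males. The groups did not overlap, and the log2 fold change was 3.79 (SE 0.20, edgeR adjusted p 8.68e-18). Socs2, a feedback inhibitor of growth hormone signalling and a known STAT5 target, ran from 5.08 over 9.47 to 25.8 CPM in WT males and from 55.5 over 98.0 to 221 CPM in Y665F males. Its log2 fold change was 3.14 (SE 0.35, edgeR adjusted p 1.88e-09), again with no overlap. Lifr, which encodes the receptor of leukemia inhibitory factor, rose by 2.02 (log2 scale, SE 0.19) with levels of 436 to 793 CPM in WT and 1029 to 3662 CPM in Y665F males. The receptor genes Igf1r (0.10) and Il6st (0.13) were not called.

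Ghr rose less. It lay between 671 and 725 CPM in WT males and reached a median of 1161 and a highest value of 1650 CPM in Y665F males, for a log2 fold change of 0.74 (SE 0.12). One library broke the separation: replicate 2 was at 516 CPM, under every WT library, while the other 8 lay above all of them. Cish, the other classical STAT5-induced feedback inhibitor, was not called, with a log2 fold change of 0.36 (SE 0.46, edgeR adjusted p 0.526). Its WT libraries alone ran from 5.11 to 71.3 CPM and the Y665F libraries from 16.8 to 69.5 CPM. WT male replicates 2 and 4 were at 71.3 and 67.7 CPM. The other WT libraries reached 13.0 CPM, below all Y665F libraries. Replicates 2 and 4 were also the highest WT libraries for Socs2 (25.8 and 23.5 CPM) and the lowest for Bcl6 (36.2 and 36.4 CPM). Socs3 was lower at -0.80 and Socs7 at -0.67 (SE 0.07), the latter below all WT libraries in 9 of 9. The Socs3 call (edgeR adjusted p 0.0248) was lost without WT male replicate 2 (adjusted p 0.0740) and without WT male replicate 4 (0.0718), and also with the share of counts in no gene as covariate (-0.54, adjusted p 0.210), with the replicate block (-0.68, adjusted p 0.102) and with limma-voom.

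Among the kinases and STAT genes, Stat4 differed most (1.20, SE 0.18), at only 0.288 to 1.10 CPM. Stat5a rose from a median of 17.3 to 27.3 CPM (log2 fold change 0.63, SE 0.09), with all 9 Y665F libraries above every WT library. Stat5b itself differed by 0.17 (SE 0.07, edgeR adjusted p 0.0370), from a median of 98.7 to 109 CPM, and the call was lost when any of 8 libraries was omitted. These were WT male replicates 3, 4, 5 and 6 and Y665F male replicates 4, 5, 6 and 9, and the adjusted p then went up to 0.188. It was also lost with the share of counts in no gene as covariate (0.11, edgeR adjusted p 0.218) and with the replicate block (0.18, edgeR adjusted p 0.0501). Stat2 (0.39), Stat3 (0.56) and Tyk2 (0.38) were called higher. Jak2, the kinase bound to the growth hormone receptor, was not called, at -0.01 (SE 0.05, edgeR adjusted p 0.928), nor was Jak1 at -0.11 (SE 0.05). Jak1 passed in 3 of the 15 fits that each left out 1 library: WT male replicate 4, WT male replicate 5, or Y665F male replicate 2 (-0.14, edgeR adjusted p 0.0167); over all 15 the fold change lay between -0.14 and -0.098 and the adjusted p reached 0.136. Counts per gene do not show an exchanged base, so Stat5b levels do not check the genotype.

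The secreted arm of the axis moved both ways. Igf1, the growth factor that liver releases under growth hormone, rose by 0.38 (SE 0.09), with 554 to 669 CPM in WT males and a Y665F median of 803 CPM. Replicate 2 was again below every WT library, at 550 CPM. Igfals, whose product stabilises IGF1 in blood, rose by 0.72 (SE 0.08) with no overlap between groups. Igfbp1 rose by 1.70 (SE 0.41) and Igfbp3 by 0.76 (SE 0.15). Igfbp2 fell from a median of 364 to 154 CPM (log2 fold change -1.33, SE 0.15), and its 9 Y665F libraries lay below every WT library. Egfr, a receptor of epidermal growth factor, was lower at -1.01 (SE 0.24) with overlapping groups.

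**Figure D1:**
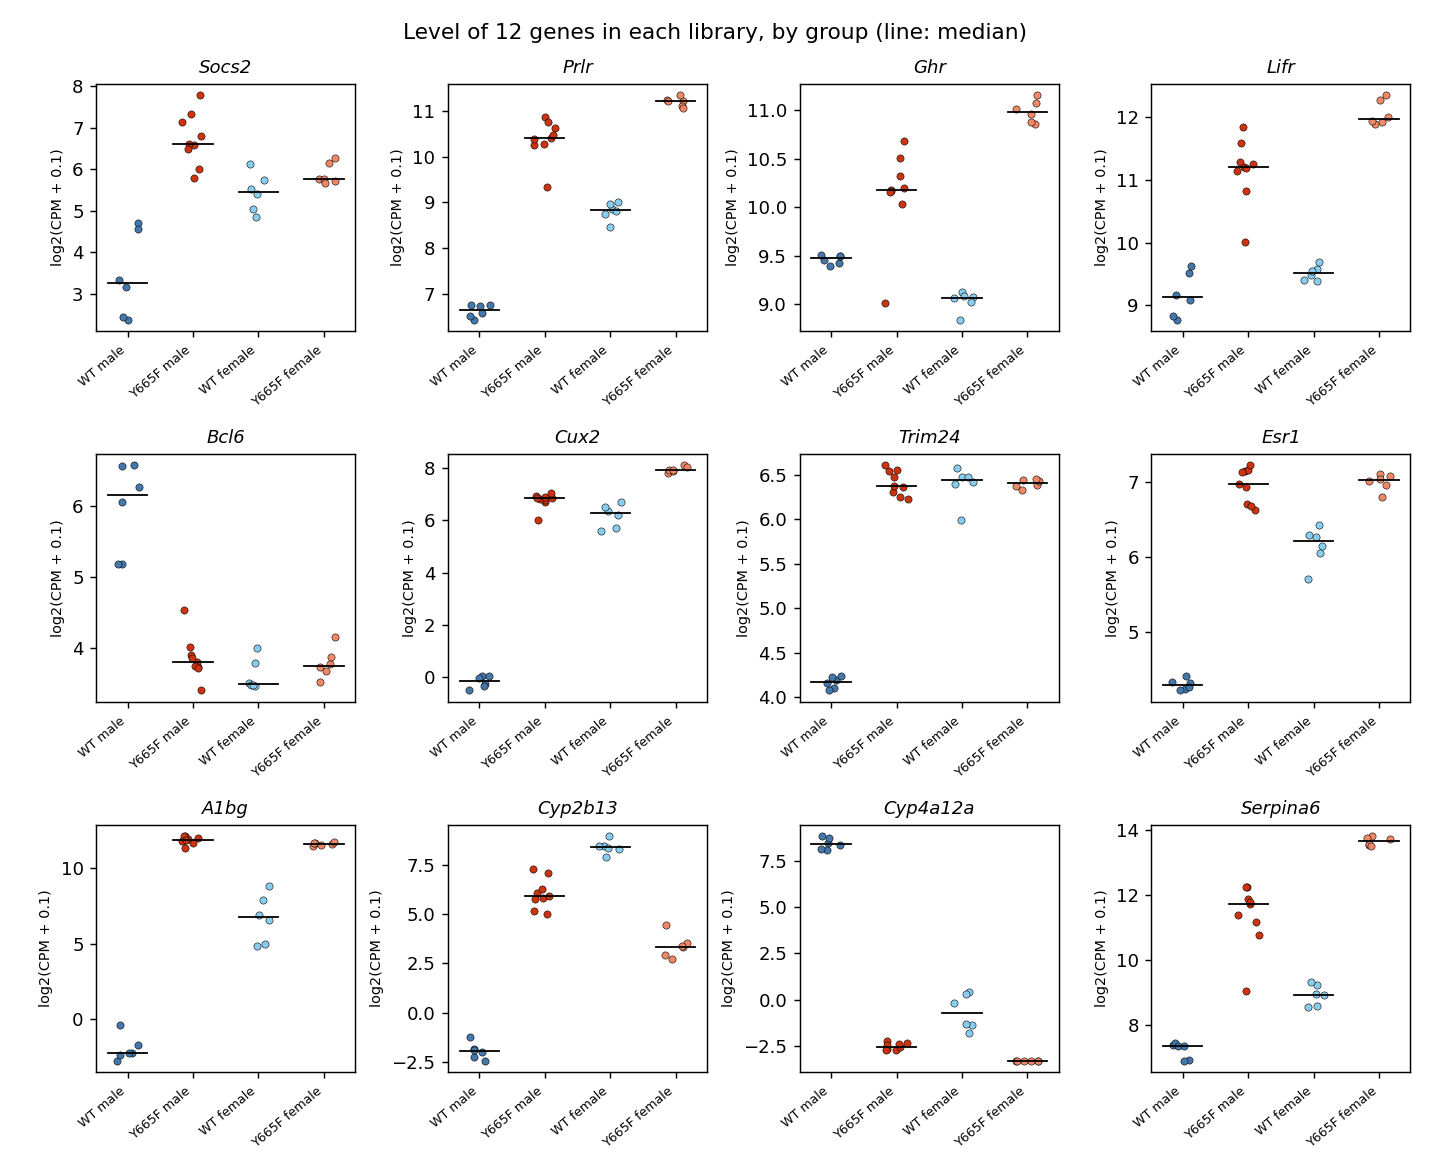
Level of 12 genes in each WT and Y665F library of both sexes on a log axis, log2(CPM + 0.1); each point is a library and each line a group median. Prlr, Socs2, Cux2, Trim24 and Esr1 do not overlap between WT and Y665F males, while Ghr and Serpina6 each have a Y665F male library (replicate 2) far below the other 8.

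Of 26 regulators of sex-biased genes tested, mostly transcription factors and cofactors, 5 were higher (19.2%) and 8 lower (30.8%), with a median of -0.06. Cux2 was nearly silent in WT males at 0.603, 0.810 and 0.937 CPM and was found at 65.1, 115 and 133 CPM in Y665F males. That is a log2 fold change of 7.13 (SE 0.42, edgeR adjusted p 3.31e-16). Bcl6 went the other way, from 36.2, 71.8 and 95.2 CPM to 10.5, 13.9 and 23.1 CPM (log2 fold change -2.20, SE 0.25, edgeR adjusted p 3.49e-09). In both genes the groups were fully apart.

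Trim24, a cofactor of nuclear receptors, rose from 16.8 to 18.8 CPM in WT males to 75.0 to 97.1 CPM in Y665F males (log2 fold change 2.25, SE 0.14). Esr1, the estrogen receptor, rose from 18.6 to 21.1 CPM to 98.9 to 149 CPM (2.67, SE 0.14), and Tox rose by 1.25 (SE 0.11). Ihh, a hedgehog ligand, was lower at -1.98 (SE 0.22), Zbtb20 at -0.61 and Nr1i2, the pregnane X receptor, at -0.46, each below all WT libraries in 9 of 9. Of other factors of hepatocytes, Foxa1 at -0.83 (edgeR adjusted p 5.49e-05) and Cebpa at -0.28 (edgeR adjusted p 0.00181) were lower, and Hnf4a at -0.10 (edgeR adjusted p 0.267) and Foxa2 at 0.19 were not called.

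Among called genes with a mean of at least 10 CPM in a group, no overlap between the groups and no predicted name, the 10 highest fold changes included those of the female-type enzymes Sult2a1, Sult2a2, Cyp3a41a, Cyp3a16, Sult3a1, Cyp3a44 and Sult2a5 and of A1bg. Sult2a enzymes attach sulfate to steroids and bile acids, and Cyp3a enzymes oxidise steroids and drugs. A1bg, a secreted glycoprotein, lay between 0.0461 and 0.657 CPM in WT males and between 2588 and 4507 CPM in Y665F males, with a median of 3795 CPM. Cyp3a41a was at 0 to 0.150 CPM in WT and 510 to 680 CPM in Y665F males.

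Sult2a2 had no count in the 6 WT male libraries together and 34856 counts in the 9 Y665F libraries. Set against a floor of 3 counts over the WT group, it was at least 7081-fold higher, and Sult2a5 was at least 1798-fold higher. Sult2a1 had 2 counts in WT and 123574 in Y665F males. Members of the Sult2a, Cyp3a and Mup families are near-identical copies, and the files list reads aligned at several places apart from the genes, so the level of a single copy is uncertain.

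Of the 35 female-biased enzymes and transporters tested, 30 rose and none fell, with a median log2 fold change of 4.46, and 26 had all 9 Y665F libraries above every WT library. Cyp2a4, a steroid hydroxylase, rose by 10.31 (SE 0.57), Slc22a26 by 8.92 (SE 0.39) and Cyp2b9 by 5.45 (SE 0.45). Cyp17a1, which makes androgen precursors, rose from 2.59 to 7.11 CPM to 49.6 to 152 CPM (4.46, SE 0.33). Acot3, an acyl-CoA thioesterase, rose from 2.63 to 7.40 CPM to 80.7 to 269 CPM (5.29, SE 0.49). Cyp2a5, Cyp4a14, Cyp39a1, Ntrk2 and Lpl did not pass the test. Cyp2a22 was called (3.10, SE 0.65) although 3 of its 9 Y665F libraries lay below every WT library and 6 lay above. The list was written with the sex bias of these genes known, so its direction is no independent evidence.

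STAT5 binds the palindrome TTCNNNGAA, which reads the same on both strands. It was searched in the 250 bases before the start of each gene in RefSeq promoter sequences (GRCm38.p6), where 11315 of the tested genes had an entry. The letters were present in 7.43% of them, in 8.21% of the genes called higher and in 7.22% of those called lower. Genes called higher by 1 or more on the log2 scale held it in 8.51%, and genes called lower by as much in 8.79%. Of the 147 genes named by rule with an entry, 11 held it (7.48%). Over all entries of the table, tested or not, 7.02% held the motif. A match is a description of these letters in this window only. The windows of 5 genes are shown because they include female-type and iron-related genes that rose and a regulator and a complement gene that fell, each with the motif in capitals.
A1bg, chr15:60921271-60921520, minus strand: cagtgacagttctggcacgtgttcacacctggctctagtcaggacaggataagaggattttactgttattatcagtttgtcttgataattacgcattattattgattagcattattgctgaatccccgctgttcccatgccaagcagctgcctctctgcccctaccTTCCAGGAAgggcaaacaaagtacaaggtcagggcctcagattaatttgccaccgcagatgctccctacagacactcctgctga
Sult3a1, chr10:33857472-33857721, plus strand: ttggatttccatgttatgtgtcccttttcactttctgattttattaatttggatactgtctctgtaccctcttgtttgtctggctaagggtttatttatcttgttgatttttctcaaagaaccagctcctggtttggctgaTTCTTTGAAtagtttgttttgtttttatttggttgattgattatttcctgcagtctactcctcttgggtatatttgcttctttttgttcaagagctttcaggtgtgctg
Hamp2, chr7:30924182-30924431, minus strand: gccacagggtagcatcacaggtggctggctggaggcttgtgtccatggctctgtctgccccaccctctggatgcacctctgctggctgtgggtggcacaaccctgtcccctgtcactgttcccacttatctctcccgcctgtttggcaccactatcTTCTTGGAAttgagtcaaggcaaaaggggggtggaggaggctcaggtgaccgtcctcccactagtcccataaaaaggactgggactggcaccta
Bcl6, chr16:23988853-23989102, minus strand: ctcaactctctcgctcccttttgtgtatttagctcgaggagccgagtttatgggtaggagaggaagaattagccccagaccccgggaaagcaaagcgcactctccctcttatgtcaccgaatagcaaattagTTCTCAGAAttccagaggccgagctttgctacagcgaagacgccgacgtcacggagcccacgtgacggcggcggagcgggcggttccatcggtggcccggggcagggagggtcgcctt
C8a, chr4:104876399-104876648, minus strand: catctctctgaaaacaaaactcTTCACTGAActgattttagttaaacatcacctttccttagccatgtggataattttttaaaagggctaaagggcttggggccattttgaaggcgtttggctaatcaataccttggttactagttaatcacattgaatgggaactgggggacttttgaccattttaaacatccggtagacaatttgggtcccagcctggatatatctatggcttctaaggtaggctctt
The first base of the motif lay 84 bases before the start in A1bg, 109 in Sult3a1, 94 in Hamp2, 118 in Bcl6 and 228 in C8a. For Bcl6 the RefSeq promoter table has a second promoter entry, with 3 more matches, that is not shown.

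Male-biased genes showed the mirror pattern. Of 31 male-biased enzymes and transporters tested, 30 fell and 1, Cyp2c70, rose, and the median log2 fold change was -3.69. By the same limits, the 10 lowest fold changes belonged to Mup7, Mup14, Cyp4a12a, Cyp4a12b, Hsd3b5, Mup20, Mup12, Mup1, Elovl3 and Cyp2d9. Mup20, the urinary protein known as darcin, fell from 2651, 3396 and 4653 CPM to 6.60, 9.07 and 11.8 CPM (log2 fold change -8.57, SE 0.48, edgeR adjusted p 6.31e-17). Cyp4a12a, a fatty acid hydroxylase, was at 267 to 460 CPM in WT males and at 0.0492 to 0.113 CPM in Y665F males. Mup14, at 83.6 to 209 CPM in WT males, had 0 to 0.0847 CPM in Y665F males.

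Hsd3b5, a male-biased steroid dehydrogenase, fell from a median of 302 to 0.651 CPM (-8.78, SE 0.47). Elovl3, which lengthens fatty acids, fell from 188 to 1.07 CPM (-7.20, SE 0.22), and Slco1a1, an organic anion transporter, from 672 to 23.2 CPM (-4.09, SE 0.36). No library of Slco1a1 crossed between the groups. For Hsd3b5 and Elovl3 the limits used to name them required this. Cyp2c70, which makes muricholic acids, was higher at 0.46 (SE 0.12), with 8 of 9 Y665F libraries above all WT libraries.

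Set beside WT females, the Y665F males were not at the female level in many of these genes. The Y665F males differed from WT females in 7634 genes (50.4% of those tested; 3828 higher, 25.3%, and 3806 lower, 25.1%), while WT males differed from WT females in 7537 (49.7%). The male and female libraries also differed in depth, with 24388434 to 40864173 gene counts in the 12 female libraries used, so a processing difference that follows sex cannot be told apart from sex. Of the 35 female-biased genes, 16 were higher in Y665F males than in WT females, 5 were lower and 14 were not called. A1bg averaged 160 CPM in WT females and was 23.6 times as abundant in Y665F males. Cyp3a16 was 21.7 times and Sult2a1 19.7 times the WT female mean.

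Cyp2b13, a female-biased member of the Cyp2b family, stayed below the female level: its mean in Y665F males was 0.217 of the 344 CPM in WT females (log2 difference -2.20, edgeR adjusted p 5.5e-07). Trim24 was not called against WT females at 0.02 (SE 0.14, edgeR adjusted p 0.92), nor Bcl6 at 0.25 (0.45) nor Cux2 at 0.56 (0.10). Esr1 (0.80) and Prlr (1.61) were higher than in WT females. Of the 31 male-biased genes, 19 were lower in Y665F males than in WT females, 3 were higher and 9 were not called. Hsd3b5 stood at 0.0343 of the WT female mean and Cyp2d9 at 0.113.

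**Figure D2:**
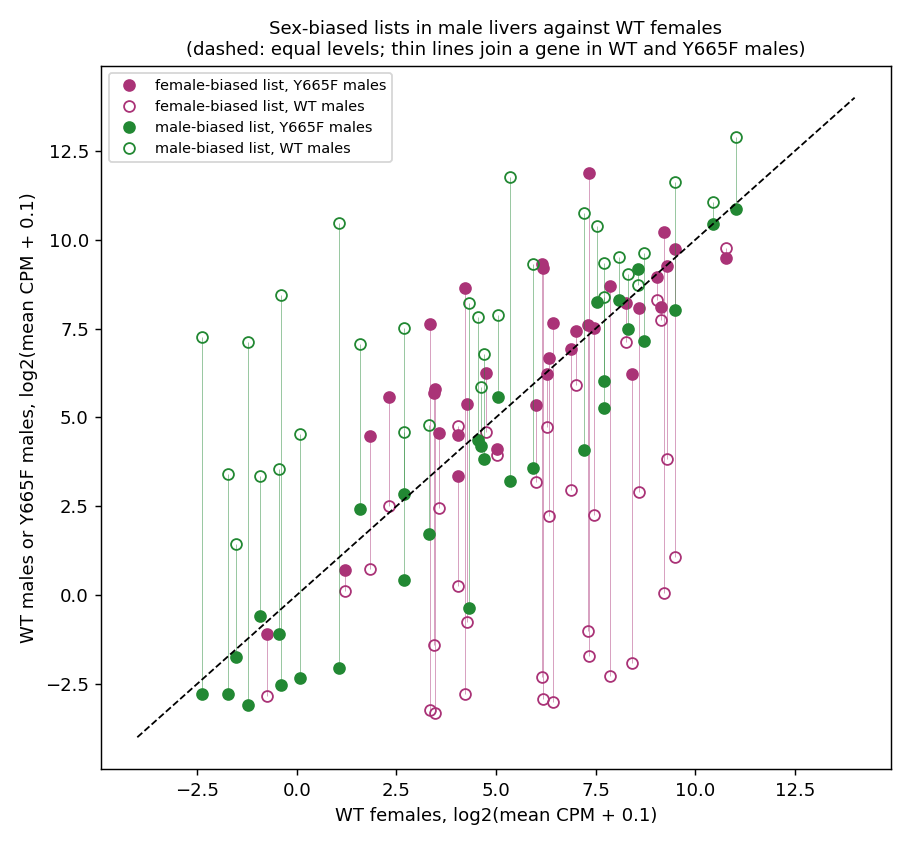
Mean level in WT males (open) and Y665F males (filled) on the vertical axis against the mean in WT females on the horizontal axis, both as log2(CPM + 0.1), for the 35 female-biased and 31 male-biased genes tested. Filled points far above the dashed line of equal levels include A1bg and Cyp3a16, and many filled points of the male-biased list lie below it.

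Against Y665F females, the Y665F males still differed in 6526 genes (43.1%). The effect of Y665F differed between the sexes, by the interaction term, in 4190 genes (27.7%), among them 31 of the 35 female-biased and 18 of the 31 male-biased genes tested. These comparisons share samples with the ones above, so each is given only with its own values. Cyp2b13 rose in males, and in females its mean was 344 CPM in WT and 11.2 CPM in Y665F libraries (interaction 13.75, edgeR adjusted p 6.0e-17). Socs2 averaged 45.3 CPM in WT females and 59.9 CPM in Y665F females, and its interaction was 2.73 (adjusted p 3.0e-05). Ghr had a negative interaction of -1.22, with 525 CPM in WT and 2044 CPM in Y665F females.

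A small group of genes was near silent in WT livers of both sexes. Chosen after their values were seen, 10 genes averaged below 1 CPM in WT males and in WT females and at least 5 CPM in Y665F males, among them Adcy1, Nptx1, Adra2c, Sorcs3, Sult2a3, Ccdc38, Fgf11, Slc24a3 and Prtn3. Adcy1, an adenylate cyclase, spanned 12.3 to 91.3 CPM in Y665F males against 0.426 to 1.15 CPM in WT males. Prtn3, a neutrophil protease, entered through replicate 2 alone, which had 44.5 CPM while the other 8 had 0.291 to 0.734 CPM. The lowest Y665F male value of Fgf11, 0.398 CPM, lay within the WT male range of 0.338 to 0.475 CPM. Several had higher means in Y665F females than in Y665F males: Nptx1 (46.6 CPM against 14.8), Fgf11 (19.2 against 6.05), Sorcs3, Adra2c, Ccdc38 and Slc24a3. Adcy1 averaged 42.2 CPM in Y665F females and 47.5 CPM in Y665F males. Sult2a3 (1.84 CPM against 6.91) and Prtn3 had lower means in Y665F females. The converse pattern was met by Hsd3b5 and Dsg1c.

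Cholesterol synthesis genes were broadly higher. Of 29 tested, 23 rose and none fell, with a median log2 fold change of 0.71. Sqle, which starts the sterol-specific steps, went from 15.8, 17.4 and 19.6 CPM to 57.2, 92.6 and 197 CPM (log2 fold change 2.57, SE 0.30, edgeR adjusted p 8.67e-09). Mvd rose by 2.59 (SE 0.29) and Hmgcs1 by 1.74 (SE 0.29), both with all 9 Y665F libraries above every WT library. Srebf2, the activator of this pathway, was called higher at 0.68, while Srebf1, its relative for fatty acid synthesis, was not called at -0.34. Compared with WT females, 16 of the 29 were lower in Y665F males and 2 higher. With a clock index as covariate (described with the clock genes), 13 of the 29 were called higher and 1 lower.

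Of 28 lipoprotein genes, 7 rose (25.0%) and 10 fell (35.7%), against 27.2% and 25.3% over all genes tested. Apoa4 rose by 1.61 (SE 0.16), Tm6sf2, which aids lipid loading of lipoproteins, by 1.25 (SE 0.09) and Pltp by 1.02 (SE 0.29). Scarb1, the receptor for high-density lipoprotein, was lower at -0.78 (SE 0.09), Apoc1 at -0.56 and Apoa1 at -0.52 (SE 0.13). Apob, Mttp and Lipc were called lower by less than the size of those 3, and Apoe, Apoc3 and Apoa5 were not called.

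Bile acid genes mostly fell, 20 of 36 against 7 that rose, with a median of -0.25. The enzymes Akr1d1 (0.47) and Cyp2c70 (0.46) were called higher, as was Cyp7a1, which opens the classical pathway and rose from 19.3, 21.2 and 44.2 CPM to 57.8, 170 and 336 CPM (log2 fold change 2.60, SE 0.35, edgeR adjusted p 9.52e-08). Cyp7b1 of the alternative pathway fell from 170, 257 and 287 CPM to 32.0, 43.2 and 69.4 CPM (-2.31, SE 0.19), and Cyp8b1 was not called at 0.13. Cyp7a1 and Cyp7b1 showed no overlap between the groups. Scp2, which shortens the side chain, fell from a median of 3383 to 1110 CPM (-1.65, SE 0.09). Nr0b2, the repressor induced by bile acids, was lower at -0.70 (SE 0.24), and Nr1h4, the bile acid receptor, was not called at -0.08. Of the transporters, Abcc4 at the basolateral face rose by 2.26 (SE 0.16) and Abcb1a by 1.04, while the uptake carriers Slc10a1 (-0.36) and Slco1b2 (-0.70) and the export pump Abcb11 (-0.32) were lower.

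Fatty acid genes showed single large changes inside lists that were otherwise mixed. In synthesis, elongation and desaturation, 8 rose and 8 fell of 27 (29.6% each, against 27.2% and 25.3% over all genes tested). Pnpla3, a lipid droplet lipase, rose from 0.651, 1.09 and 1.36 CPM to 8.21, 27.7 and 88.1 CPM (log2 fold change 5.39, SE 0.51, edgeR adjusted p 5.83e-11). Fads1, a desaturase, rose by 1.34 (SE 0.10) and Acacb by 1.02 (SE 0.19), while Fasn (0.44), Acaca (-0.05) and Scd1 (-0.59) were not called. Scd1 ranged from 2331 to 10165 CPM among the Y665F libraries alone.

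In fatty acid oxidation, 11 of 30 rose and 7 fell, and Cpt1a, the gatekeeper of mitochondrial uptake, was not called at 0.02. With the share of counts in no gene as covariate, 7 of the 30 were called higher and 10 lower. Pdk4, which holds back glucose oxidation, rose from a median of 3.72 to 10.1 CPM (1.84, SE 0.27) and Cyp4a31 by 2.19 (SE 0.25). Among uptake and droplet genes, 3 of 22 rose and 10 fell. Cd36, a fatty acid translocase, went from 20.1, 42.6 and 62.5 CPM to 71.7, 164 and 212 CPM (1.86, SE 0.24), and Vldlr rose by 2.14 (SE 0.28). Fabp5 rose by 2.51 (SE 0.49), and by 1.86 without replicate 2, the library with the highest value of 175 CPM. Fitm1 was lower at -1.28, Cidec at -0.90 and Plin4 at -0.74, the last not called with the share of counts in no gene as covariate (edgeR adjusted p 0.0912).

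**Figure D3:**
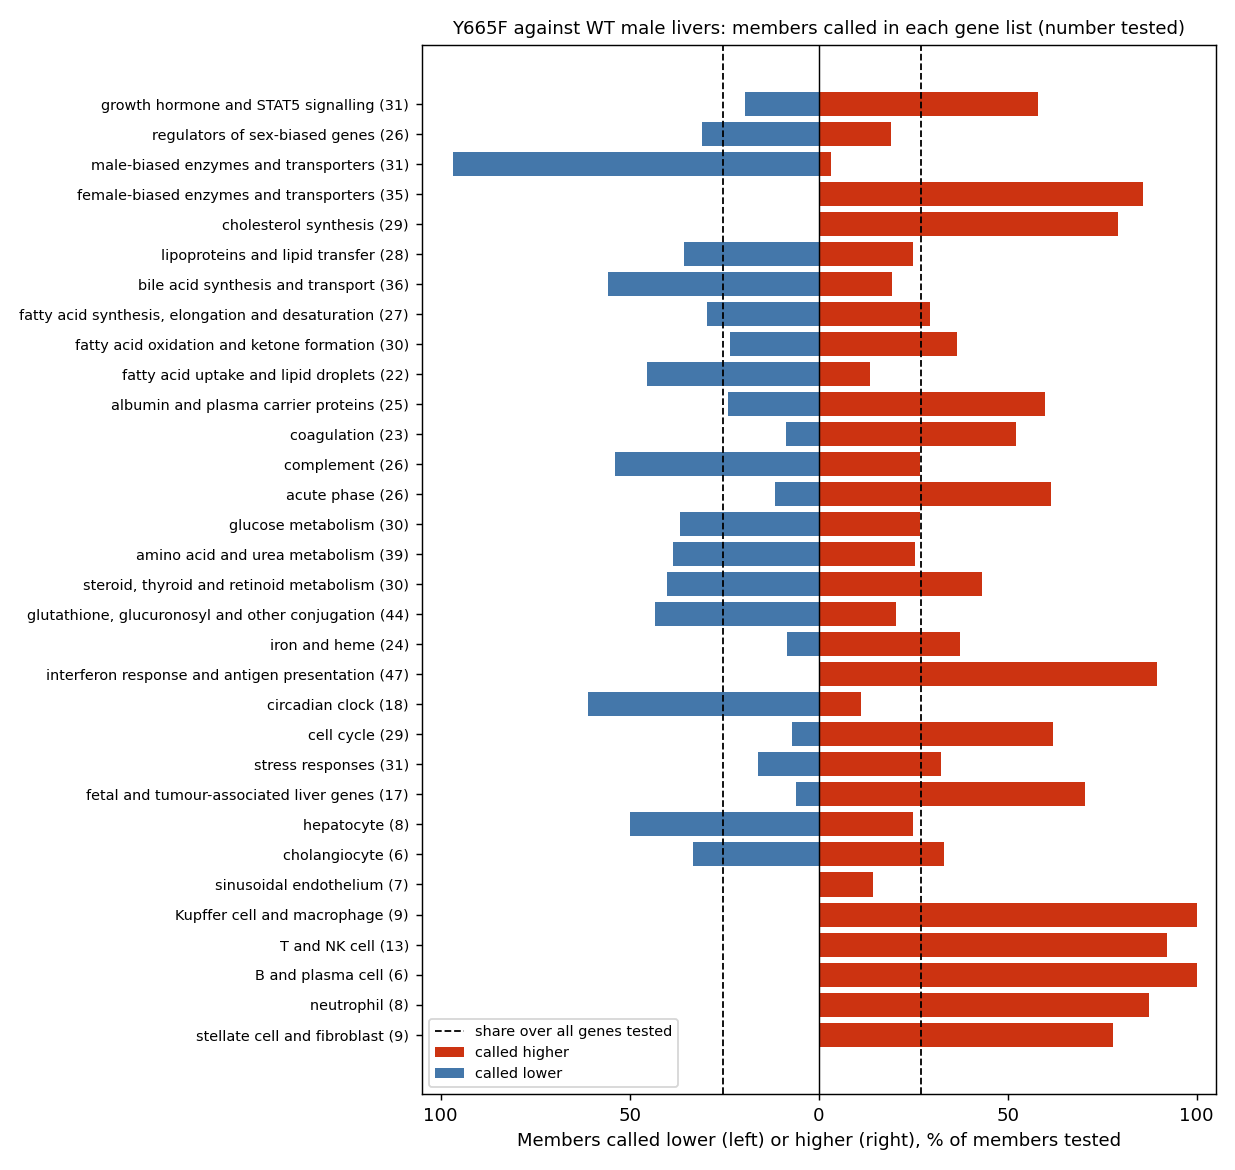
Share of the tested members of each gene list called higher (right) or lower (left) in Y665F against WT males, in % of members tested, with the number tested in brackets; dashed lines mark the shares over all genes tested (27.2% higher, 25.3% lower). The male-biased list lies almost wholly to the left, and the female-biased, cholesterol synthesis and interferon lists lie to the right with no member called lower.

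Secreted plasma proteins rose more often than they fell. Alb, the most abundant transcript of hepatocytes, took 5.54% to 6.44% of the gene counts in WT males and 10.5% to 12.2% in Y665F males, a log2 fold change of 1.00 (SE 0.09, edgeR adjusted p 3.41e-11). Of 25 carrier proteins, 15 rose and 6 fell. Serpina6, the globulin that binds corticosteroids in blood, went from 120, 165 and 175 CPM to 534, 3360 and 4895 CPM (4.33, SE 0.32), and replicate 2 held the lowest Y665F value. Itih4 rose by 1.50 and Trf, the iron carrier, by 0.79 (SE 0.07). Mug1, a protease inhibitor, fell from a median of 5488 to 1916 CPM (-1.59, SE 0.18), Rbp4 fell by 0.64 and Ttr by 0.50 on the log2 scale. Of 23 coagulation genes, 12 rose and 2 fell, led by F7 at 1.15 (SE 0.08) and F10 at 0.59 (SE 0.06).

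Complement genes fell more often than they rose, with wide falls among those of the membrane attack complex. Of 26 members, 14 fell and 7 rose, with a median of -0.26. C6 fell from 204, 233 and 244 CPM to 14.2, 19.6 and 32.2 CPM (log2 fold change -3.48, SE 0.16, edgeR adjusted p 3.23e-19). C9, which forms the pore, fell from 421, 428 and 531 CPM to 30.2, 44.2 and 172 CPM (-2.82, SE 0.29), where 172 CPM is replicate 2. C8a (-2.45, SE 0.29) and C8b (-2.35, SE 0.20), 2 of the chains of C8, fell with no overlap. C8g, the remaining chain, was not called at -0.14 (edgeR adjusted p 0.119), nor was Hc, which encodes C5, at -0.23, though Hc passed without Y665F male replicate 2 (-0.32, edgeR adjusted p 0.0046). Higher members included the lectin Mbl2 (1.35, SE 0.11), C3 (0.81, SE 0.09) and Cfp (1.04), the last a gene that myeloid cells express, whose markers also rose and whose part in this value was not tested. C6 was at the level of WT females (-0.20, adjusted p 0.31), while C8a (-1.56), C8b (-1.68) and C9 (-1.31) were below it.

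Acute phase genes were called higher in 16 of 26 and lower in 3, and here replicate 2 weighs most. Without that library 13 of 26 were called higher. Saa2, serum amyloid A, was at 2.96 to 9.77 CPM in WT males, at 10.4 to 24.9 CPM in 8 Y665F libraries and at 774 CPM in replicate 2. Its log2 fold change was 4.30 (SE 0.99, edgeR adjusted p 0.000446) with that library and 1.82 (adjusted p 0.0092) without it. Saa1 (2.63, edgeR adjusted p 0.0072) lost its call without it (0.41, adjusted p 0.480). Lcn2 moved from 4.64 to 3.47 and Orm2 from 3.12 to 1.89 when it was left out. The changes of Cp (1.20), Serpina3k (-1.22) and Il1r1 (-1.16, or -1.28 without replicate 2) were little affected. Il1r1 encodes a receptor of interleukin-1.

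**Figure D4:**
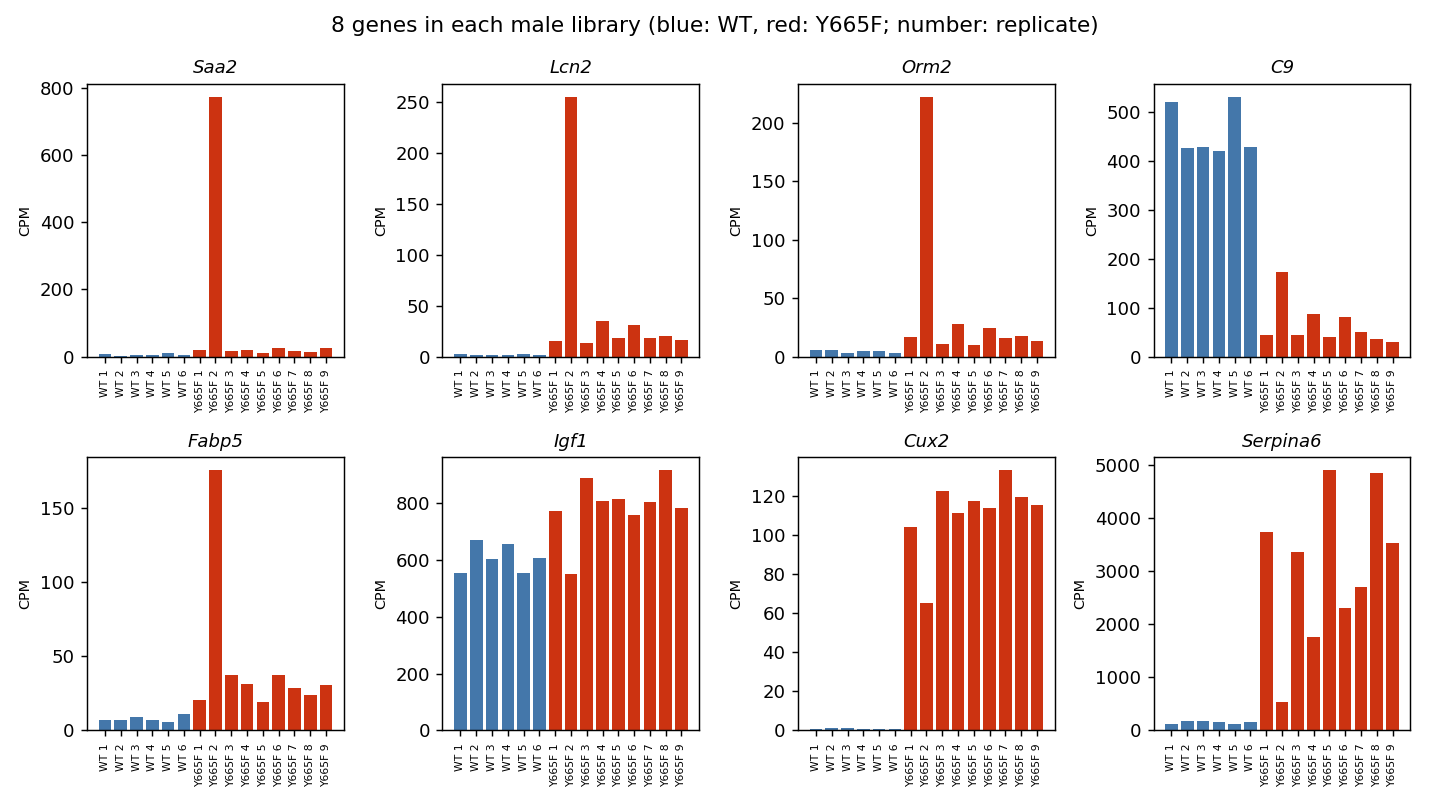
Level in CPM of 8 genes in each of the 6 WT (blue) and 9 Y665F (red) male libraries, one bar per library on axes that start at 0. Replicate 2 of the Y665F males is far above the other 8 in Saa2 (774 CPM), Lcn2, Orm2, C9 and Fabp5, and below them in Igf1, Cux2 and Serpina6.

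Steroid, thyroid and retinoid genes split into 13 higher and 12 lower of 30. Srd5a1, which reduces testosterone and corticosteroids, fell from 111 to 137 CPM in WT to 25.0 to 56.4 CPM in Y665F males (-1.47, SE 0.13), and Hsd3b2 fell by 1.65 on the log2 scale. Cyp26b1, which degrades retinoic acid, was lower at -2.07 (SE 0.54), and at -2.70 without replicate 2. Conjugating enzymes leaned down, 19 lower and 9 higher of 44. Gstp1 fell from a median of 1409 to 305 CPM (-2.14, SE 0.13) and Tpmt by 1.42, while Ugt2b37 rose from 1.34 to 21.8 CPM (4.66, SE 0.44) and Ugt1a5 from 23.1 to 138 CPM (2.63, SE 0.22). Gclc, Gclm and Gss, which make glutathione, were not called.

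Iron genes included a pair that differed: Hamp2, a paralogue of hepcidin, rose from 26.6, 40.2 and 64.8 CPM to 226, 554 and 720 CPM (log2 fold change 3.56, SE 0.39, edgeR adjusted p 1.41e-09), while Hamp, hepcidin itself, was not called at 0.30 (SE 0.45). The 2 genes are similar in sequence, so their split of reads is uncertain. In the list, 9 of 24 rose and 2 fell. With the share of counts in no gene as covariate, 9 were called higher and 5 lower. Bmp6, the ligand that induces hepcidin, was lower at -0.70 and its target Id1 higher at 1.57 (SE 0.29). The metallothioneins Mt1 (5.28, SE 0.33) and Mt2 (6.69, SE 0.49) had the widest changes of the stress list. Mt2 ran from 0.689 to 1.77 CPM in WT and from 78.9 to 264 CPM in Y665F males, with replicate 2 highest. Of the 31 stress genes, 10 rose and 5 fell, with Herpud1 (-1.21), Trib3 (-1.30) and Hspb1 (-1.65) lower and Hspa5 not called.

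Of 30 glucose genes, 8 rose (26.7%) and 11 fell (36.7%), against 27.2% and 25.3% over all genes tested. Those that fell included Slc37a4 (-0.87) and Slc2a2 (-0.72), carriers of glucose 6-phosphate and glucose, and Gys2, liver glycogen synthase (-0.84). G6pc, Pklr and Fbp1 were not called, though Fbp1 passed without Y665F male replicate 2 (0.16, edgeR adjusted p 0.0458). Hk2 rose by 1.34 (SE 0.15) from a low level, 2.18 CPM at the WT median. Of 39 amino acid and urea genes, 10 rose (25.6%) and 15 fell (38.5%). Tdo2, which opens tryptophan breakdown, fell from a median of 1520 to 642 CPM (-1.27, SE 0.10), Ftcd was at -0.79 and Sds at -0.71, while Mat1a, which makes S-adenosylmethionine, rose by 0.76 (SE 0.08).

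Markers of immune cells were higher in Y665F males. All 9 Kupffer cell and macrophage markers rose, with summed levels of 194 to 289 CPM in WT males and 310 to 719 CPM in Y665F males. Marco, a scavenger receptor of macrophages, rose by 2.65 (SE 0.38), and Clec4f, which defines mouse Kupffer cells, by 1.04 (SE 0.16). Of 13 T and NK cell markers 12 rose, and their sum went from 3.84 to 6.65 CPM in WT to 11.0 to 23.8 CPM in Y665F males. Cd8a rose by 3.59 (SE 0.25) and the granzyme Gzmb by 3.71 (SE 0.23), while Cd4 was not called at -0.34 (edgeR adjusted p 0.153).

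All 6 B and plasma cell markers rose, with Jchain of antibody-secreting cells going from 0.590 to 1.20 CPM to 8.69 to 15.2 CPM (3.50, SE 0.23). Neutrophil markers rose in 7 of 8, at sums of only 0.381 to 0.902 CPM in WT and 2.01 to 12.1 CPM in Y665F males. The 12.1 CPM was replicate 2, and the other 8 Y665F libraries reached 6.06 CPM. Named after their values were seen, the granule genes Mpo (0.0656 to 1.39 CPM), Ngp (0.229 to 2.24 CPM) and Ltf (0.262 to 2.70 CPM) were highest in Y665F male replicate 2, and in each all 9 Y665F libraries lay above every WT library. WT females had Kupffer cell sums of 358 to 559 CPM, above the WT males and within the range of the Y665F males. None of the 9 Kupffer cell markers and none of the 13 T and NK cell markers was called higher in Y665F males than in Y665F females.

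Interferon response and antigen presentation genes rose in 42 of 47 and fell in none, with a median of 0.86. Zbp1, a sensor of nucleic acids, went from 2.48, 3.05 and 3.61 CPM to 11.1, 14.9 and 23.4 CPM (log2 fold change 2.35, SE 0.19, edgeR adjusted p 1.24e-12). Gbp3 rose by 1.76 (SE 0.18) and Ifi27l2b by 2.44 (SE 0.21). Cd74 (1.03) and H2-Aa (0.94), expressed by antigen-presenting cells, rose beside the macrophage and B cell markers above, whose part in these values was not tested. Compared with WT females, 17 of the 47 were higher, 7 lower and 23 not called.

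Stellate cell and fibroblast markers rose in 7 of 9. Col1a1, the main chain of type I collagen, spanned 9.90 to 24.8 CPM in WT and 22.5 to 59.2 CPM in Y665F males (1.26, SE 0.25), and Col3a1 rose by 1.19 (SE 0.20). Acta2, a marker of activated stellate cells, was not called at -0.01, nor was Lrat at -0.03. Of 7 endothelial markers 1 was called, Lyve1 at 1.30 (SE 0.23), and the sums were 397 to 442 CPM in WT and 295 to 451 CPM in Y665F males. Of 6 cholangiocyte markers 2 rose and 2 fell, and Krt19 was not called. Alas2, an erythroid marker, fell from 116 to 133 CPM to 12.0 to 22.5 CPM (-2.76, SE 0.12), while Slc4a1 of red cells was not called at -0.10 and the other 4 erythroid markers in the files were too low to be tested. The pancreas marker Cela1 was lower at -1.60 and the adipose marker Cfd at -2.86, the latter at sums below 1 CPM.

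**Figure D5:**
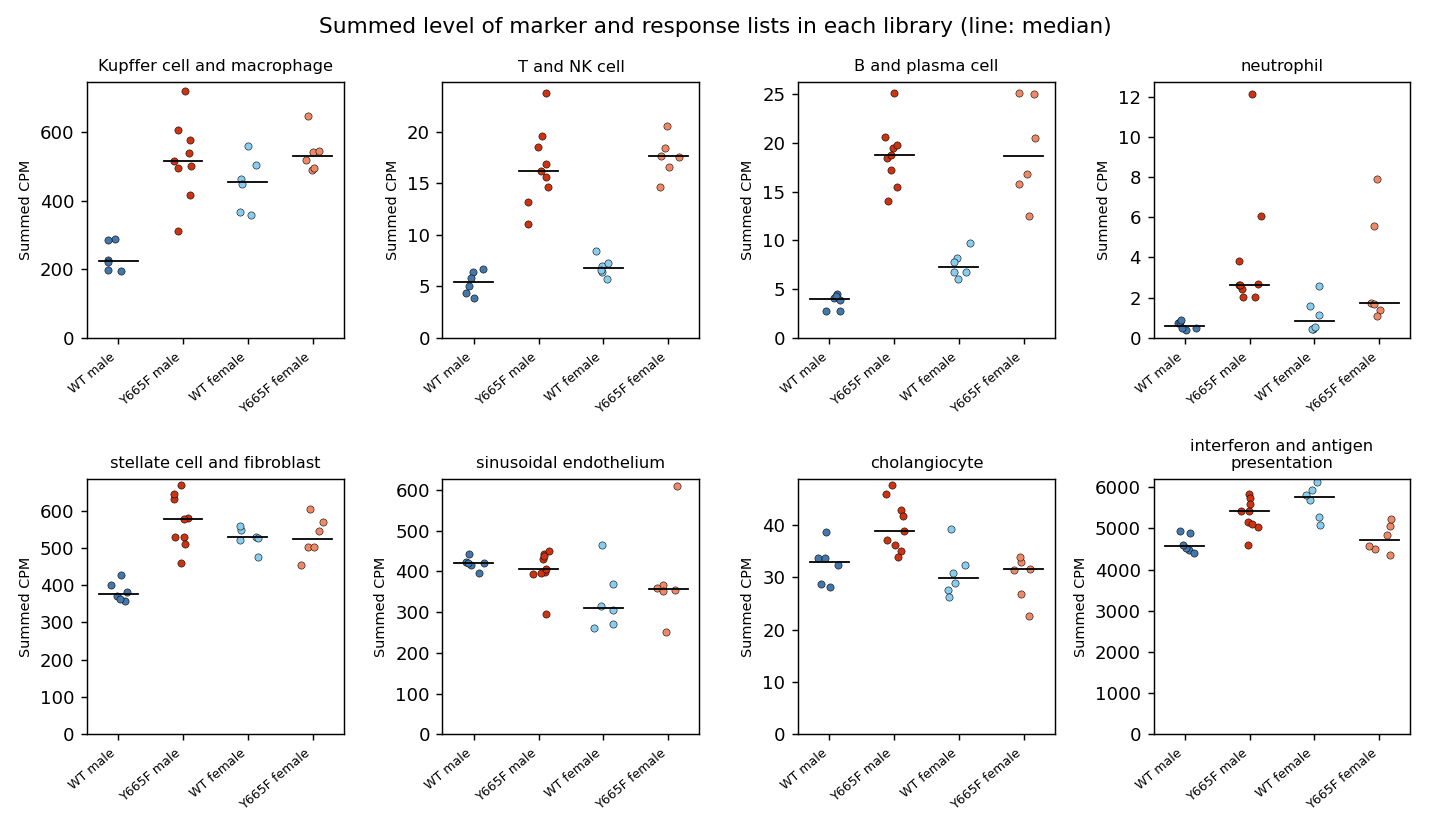
Summed level in CPM of 8 marker and response lists in each library of WT and Y665F males and females; points are libraries, lines are medians and axes start at 0. Sums of T and NK cell and of B and plasma cell markers do not overlap between WT and Y665F males, while those of sinusoidal endothelium do.

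Cell cycle genes rose in 18 of 29 and fell in 2. Mki67, a marker of dividing cells, went from 2.03, 2.47 and 4.84 CPM to 12.2, 17.8 and 23.2 CPM (log2 fold change 2.49, SE 0.29, edgeR adjusted p 5.17e-09), and Ccnd1, cyclin D1, from 13.4 to 17.7 CPM to 58.4 to 98.2 CPM (2.29, SE 0.20). Top2a rose by 1.60 (SE 0.30). Pcna, E2f1 and Mcm7 were not called, and Birc5 was lower at -0.61. With the clock index as covariate 6 of the 29 were called higher. Genes of fetal or tumour liver rose in 12 of 17 tested and fell in 1. Prom1 rose from 1.11 to 2.05 CPM to 17.8 to 24.8 CPM (3.81, SE 0.27), Robo1 by 1.46 and Afp by 1.30 (SE 0.15), while Gpc3 and Igf2 were not called.

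Clock genes mostly fell, 11 of 18 against 2 that rose. Arntl, the positive limb of the clock, was higher at 1.37 (SE 0.27) and its partner Npas2 at 2.21 (SE 0.40). Ciart, a repressor of that limb, fell from 5.28, 7.85 and 16.4 CPM to a median of 0.861 CPM with no overlap (-3.13, SE 0.36, edgeR adjusted p 5.73e-09). Per2 (-1.29), Tef (-1.11) and Dbp (-1.22) were lower too. Such genes cycle over the day, and the time of collection is not stated, so collection time and genotype cannot be told apart here. A clock index, the mean log2 CPM of Dbp, Tef, Per1, Per2, Per3 and Ciart minus that of Arntl and Npas2, lay between 3.45 and 5.89 in WT males and between -0.61 and 2.99 in Y665F males. It did not overlap between the groups, and in the 12 WT and Y665F females it was 6.74 to 8.30, above all the males. With the index as covariate 5675 genes were called, and the 30 male-biased genes called lower and the 30 female-biased genes called higher were the same in number. Other counts moved by more than 1.5 times: acute phase genes called higher went from 16 to 7, bile acid genes called lower from 20 to 13, lipoprotein genes called lower from 10 to 6, and uptake and droplet genes called lower from 10 to 5. Clock genes called lower went from 11 to 5, fatty acid synthesis genes called lower from 8 to 5, fatty acid oxidation genes called lower from 7 to 3, complement genes called higher from 7 to 4, neutrophil markers called higher from 7 to 4 and signalling genes called lower from 6 to 3. Of the genes described above, Stat5b, Stat2, Egfr, Cebpa, Nr0b2, Cyp2c70, Fabp5, Plin4, Orm2, Saa2, Gys2, Cps1, Cyp26b1, Per2, Npas2 and Birc5 were among those then not called, with edgeR adjusted p from 0.0601 (Cyp26b1) to 0.895 (Saa2). Arntl and Npas2, which enter the index, then had negative values of -0.30 and -0.23.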

How the data were processed

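Total RNA of 37 mouse livers was sequenced; the 15 male WT and Y665F libraries are the subject here. The authors deposited raw counts per gene symbol, whole numbers that are not normalized, judging from the values. Per the submitters' processing notes, FastQC 0.11.9, Trimmomatic 0.36, STAR, SAMtools 1.9, Picard 2.9.2, HTSeq 0.9.1 and the build mm10 were used; the strand setting is not given in the sources used here. The 5 rows that name no gene were left out of library sizes.

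In R 4.3.3, edgeR 4.0.16 (filterByExpr with a minimum count of 10 and total of 15, TMM, glmQLFit and glmQLFTest) was fitted to all 37 libraries with a mean per group, so that the groups share 1 estimate of spread. P-values were adjusted by Benjamini-Hochberg over 15152 genes, and genes under 0.05 were called. SE is the log2 fold change divided by the square root of its F statistic. The model was tested on simulated data with 200 changed genes. Alternatives used DESeq2 1.42.0, limma 3.58.1 (voom), other scalings, filters and covariates, and each library left out in turn. Depths of 49141951 to 73937726 gene counts per library make counting error small for all but genes near 0. The floor of 3 counts covers counting error only, since the labels name no molecular identifiers.

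The genes named are Stat5b, Stat5a and Ddx3y, the 10 highest and 10 lowest log2 fold changes among called genes (mean of at least 10 CPM in a group, all Y665F libraries outside the WT range, predicted names left out), all members of the signalling and regulator lists, and up to 3 called members in each direction of every other list at a mean of at least 1 CPM. Other members are named as examples of what did not pass the test, or where the order of a pathway needs them; some (such as Mpo, Cyp2b13, C8a, Saa1 and Cyp2a4) were chosen after their values were seen. The comparison and the lists were chosen with earlier results of these data known. Replicate numbers are those of the sample titles; the deposited files of the Y665F males and WT females carry other numbers in their names. The numbers do not pair samples. Some members of the lists are counted but not reported here by name.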

Additional observations from a re-analysis of the deposited data

Results flagged for a closer look

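A library far from the others of its group was found in 43 of 404 combinations of gene and group tested (10.6%), by the gap of the extreme library to its neighbour against the range of the group; chance flags about 5.0% of groups. Of these, 31 belong to Y665F male replicate 2. Among the genes reported here, that library was the highest of the Y665F males for Jak1 153 CPM, Socs1 1.28 CPM, Ptpn2 16.8 CPM, Bcl6 23.1 CPM, Hnf4g 1.24 CPM, Rarb 9.74 CPM, Fabp5 175 CPM, Orm2 223 CPM, Kng1 2878 CPM, C9 172 CPM, C3 22046 CPM, Il1r1 48.4 CPM, Saa4 351 CPM, Lcn2 256 CPM, Saa2 774 CPM, Cyp26b1 14.2 CPM, Ifi27l2b 15.8 CPM, Mt2 264 CPM, Mt1 259 CPM, Akr1b7 3.48 CPM, Ly6d 5.98 CPM and Apoa1 5241 CPM. It was the lowest for Igf1 550 CPM, Cux2 65.1 CPM, Scp2 805 CPM, Acaa1b 336 CPM, Rbp4 1429 CPM, Klkb1 207 CPM, Mbl2 347 CPM and Mat1a 2978 CPM.

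The remaining ones were A1bg in WT male replicate 5 (0.657 CPM), Cyp3a41a in WT male replicate 5 (0.150 CPM), Cyp3a16 in WT male replicate 5 (0.113 CPM), Cyp3a16 in Y665F male replicate 8 (523 CPM), Cyp3a44 in WT male replicate 5 (0.282 CPM), Zbtb20 in Y665F male replicate 3 (85.5 CPM), Cyp7a1 in Y665F male replicate 1 (336 CPM), Ugt2b38 in Y665F male replicate 4 (1.53 CPM), Id1 in WT male replicate 3 (9.53 CPM), Ccnb1 in Y665F male replicate 8 (2.42 CPM), Cd8a in WT male replicate 2 (0.240 CPM) and Gzma in Y665F male replicate 6 (4.22 CPM). The 4 values of WT male replicate 5 are all below 1 CPM. No cause was tested for any of these.

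The effect of Y665F differed between the sexes by the interaction term of the edgeR model, given as the male minus the female log2 fold change. It was positive for Stat5a 0.59, Sult2a1 9.61, Sult2a2 12.64, A1bg 9.95, Cyp3a41a 11.26, Cyp3a16 8.44, Sult3a1 12.06, Cyp3a44 9.65, Sult2a5 11.03, Prlr 1.41, Tyk2 0.29, Socs2 2.73, Igf1 0.57, Igfals 0.86, Cux2 5.42, Tox 1.47, Trim24 2.25, Hnf4g 1.97, Esr1 1.84 and Nr1h4 0.71. It was negative for Mup20 -4.86, Elovl3 -2.89, Cyp2d9 -1.93, Ghr -1.22, Socs7 -0.57, Igfbp2 -0.82, Bcl6 -2.36, Foxa3 -0.67, Nr1i2 -0.35, Zbtb20 -0.51 and Ihh -1.52. Where a WT group is at or near 0 counts, as for the Sult2a, Sult3a and Cyp3a genes in males, the fitted size depends on the prior count and only its sign is to be read.

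By list, the number of tested members with a difference between the sexes was 10 of 31 for growth hormone and STAT5 signalling, 11 of 26 for regulators of sex-biased genes, 18 of 31 for male-biased enzymes and transporters, 31 of 35 for female-biased enzymes and transporters, 26 of 29 for cholesterol synthesis, 11 of 28 for lipoproteins and lipid transfer, 18 of 36 for bile acid synthesis and transport, 14 of 27 for fatty acid synthesis, elongation and desaturation, 12 of 30 for fatty acid oxidation and ketone formation, 6 of 22 for fatty acid uptake and lipid droplets, 9 of 25 for albumin and plasma carrier proteins, 7 of 23 for coagulation, 12 of 26 for complement, 11 of 26 for acute phase, 10 of 30 for glucose metabolism, 7 of 39 for amino acid and urea metabolism, 20 of 30 for steroid, thyroid and retinoid metabolism, 21 of 44 for glutathione, glucuronosyl and other conjugation, 5 of 24 for iron and heme, 32 of 47 for interferon response and antigen presentation, 11 of 18 for circadian clock, 7 of 29 for cell cycle, 10 of 31 for stress responses, 8 of 17 for fetal and tumour-associated liver genes, 3 of 8 for hepatocyte, 1 of 6 for cholangiocyte, 9 of 9 for Kupffer cell and macrophage, 5 of 13 for T and NK cell, 2 of 6 for B and plasma cell, 6 of 9 for stellate cell and fibroblast, 1 of 2 for erythroid and 1 of 1 for adipose. Over all genes tested the share was 27.7%.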

How the results depend on the processing

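Leaving out each library of a comparison gave 7488 to 8005 called genes for Y665F against WT males, 3700 to 4420 for the difference between the sexes, 7030 to 7529 against WT females, 5860 to 6515 against Y665F females and 6972 to 7434 for WT males against WT females. WT male replicates 1 and 5, 2 and 4, and 3 and 6 had close values in some genes. Leaving out 1 of them kept its counterpart in the fit, so dependence on such a pair was not tested. Requiring an absolute log2 fold change of at least 1 left 1550, 996, 978, 654 and 990. With the share of counts in no gene as covariate the difference between the sexes had 2602 and the WT sex comparison 4379. The other alternatives stayed within 1.5 times for each of these counts, from 5675 with the clock index to 8634 with only the compared groups for Y665F against WT males.

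The clock index was added after seeing the data. With it, Stat5b was at -0.037 (edgeR adjusted p 0.761), Insr at 0.010 (0.924), Npas2 at -0.23 (0.384) and Arntl at -0.30 (0.0411), opposite in sign to the values without it, with Stat5b, Insr and Npas2 no longer called; 24 others of the 181 called named genes kept their sign and lost their call, among them Egfr, Saa2, Fabp5 and Per2. Apart from that fit and the size threshold, 5 named genes lost a call in some fit: Insr, Plin4, Socs3, Stat5b and Stat6. Fitted values near 0 counts moved by over 1.5 times when 1 library was left out: Sult3a1 to 13.71 without WT male replicate 4, A1bg to 14.95 and Cyp3a41a to 15.61 without WT male replicate 5, and Mup14 to -13.55 without Y665F male replicate 4. The cause was not tested.

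Same-numbered male libraries of both genotypes deviated with correlations of -0.15 to 0.16, so the numbers do not pair them. Pairs of libraries within a genotype were not tested. The replicate block gave 7023 called genes for Y665F against WT males and 3418 for the difference between the sexes; comparisons of males with females could not be fitted with it, since numbers are nested in sex. Differences below about 1 count per library, as in Sult2a2 in WT males, are beyond the depth.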
